A study of Homo sapiens with 2 samples.

Results

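The anti-adhesive matricellular proteins described here are 10 genes of 18417 that the arrays named singly: the thrombospondin genes THBS1, THBS2, THBS3 and THBS4, the tenascin-C gene TNC, SPARC and its relatives SPARCL1 and SMOC1, the periostin gene POSTN, and CCN3, also known as NOV. They were picked by name from the thrombospondin, tenascin, SPARC, periostin and CCN families, with earlier results of these arrays known, and other genes of the same families, such as COMP, TNN, TNR, SMOC2 and CCN1, are not among the 10. Each was represented by 1 sequence on the array. The cells were HT1080, an established line from a human fibrosarcoma, and spent 24 h in wells coated either with bovine serum albumin (BSA, the control) or with rLCC111, a recombinant heterotrimer of the coiled-coil region of the mouse laminin α1, β1 and γ1 chains that was made in human embryonic kidney cells. Both cultures were of this one line, which is kept in medium with fetal calf serum, and no genetic change is named for either. RNA of each coating was hybridised to 1 Affymetrix GeneChip Human Gene 1.0 ST array. Neither coating was replicated, so the differences given here carry no error and no test, and coating and array cannot be told apart.

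Matricellular proteins are secreted into the matrix but serve mainly as signals rather than as building material. Thrombospondins, tenascin-C and SPARC can loosen focal adhesions and keep cells in an intermediate state between firm attachment and rounding, and for that reason they are known as anti-adhesive proteins. They act in part through integrins. Thrombospondin-1 also acts through the scavenger receptor CD36, the integrin-associated protein CD47 and a complex of calreticulin with the endocytic receptor LRP1. The comparison asks how the 10 genes listed as anti-adhesive stood on a coiled-coil fragment of laminin relative to the control coating. The name is a label for the list, and anti-adhesive action is described here only for thrombospondins, tenascin-C and SPARC.

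Levels are log2 RMA values as deposited, and a difference is the rLCC111 value less the BSA value, so that it is above 0 for a gene that was higher on rLCC111. The array medians over all 33297 sequences were 7.04 on BSA and 7.12 on rLCC111. Over the 18417 genes the median difference was 0.00 and the SD of the differences was 0.20. A limit of silent genes was set at 6.61, below which lay 95 percent of 393 olfactory, taste and vomeronasal receptor genes by mean level. For these receptor genes the median difference was 0.00, with an SD of 0.18. Of 12 mesenchymal marker genes, 10 were above this limit on at least 1 array, with vimentin (VIM) at 13.05 on BSA and 12.98 on rLCC111, while THY1 and S100A4 were below it on both. The epithelial genes CDH1 and EPCAM, the endothelial genes PECAM1, CDH5 and VWF and the leukocyte gene PTPRC were below the limit on both arrays. However, 6 of 11 epithelial, 5 of 12 endothelial, 4 of 11 blood and 3 of 9 HEK-293 or neural markers were above it on at least 1. KRT8 was at 11.22 on BSA and 11.15 on rLCC111, KRT18 at 11.64 and 11.51 and TIE1 at 10.55 and 10.39. ROBO4 was at 8.96 and 8.42, SPI1 at 7.36 and 7.42 and NEFL at 10.39 and 9.97. Of the markers named here, only KRT8, KRT18, ROBO4, SPI1 and NEFL meet the naming rule given below. In a whole culture, fewer cells of a kind and less RNA per cell cannot be told apart.

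Most of the members that HT1080 cells expressed were slightly higher on rLCC111, and none came near a doubling. Of the 10 members, 8 had a difference above 0, where 46.2% of all genes did, and 2 had a difference below 0, where 46.6% did. THBS1, THBS2, THBS3 and CCN3, 4 of the 10, were at least 1.2-fold higher, a size reached by 6.76% of all genes. The size of 1.2-fold was chosen with earlier results of these arrays known, since no member was known to reach 2-fold. None was lower by 1.2-fold or more, as 5.89% of all genes were, and none reached 2-fold in either direction, as 0.326% did. The median of the 10 differences was 0.22, beside a median of 0.00 over all genes. These counts depend on which family genes were picked. With the 16 measured relatives added, 17 of 26 genes had a difference above 0, 6 below and 3 of exactly 0, and the median was 0.11. The 16 include SPP1 and IBSP, named here because they are SIBLING genes from outside the families of the 10. Their differences were 1.19 and 0.13. The members came to 6 with both arrays above the limit of silent genes (THBS1, THBS2, TNC, SPARC, SMOC1 and CCN3), 2 that straddled it (THBS3 and THBS4) and 2 below it on both arrays (SPARCL1 and POSTN). Among these 6 the differences ran from -0.00087 in SMOC1 to 0.37 in CCN3.

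**Figure D1:**
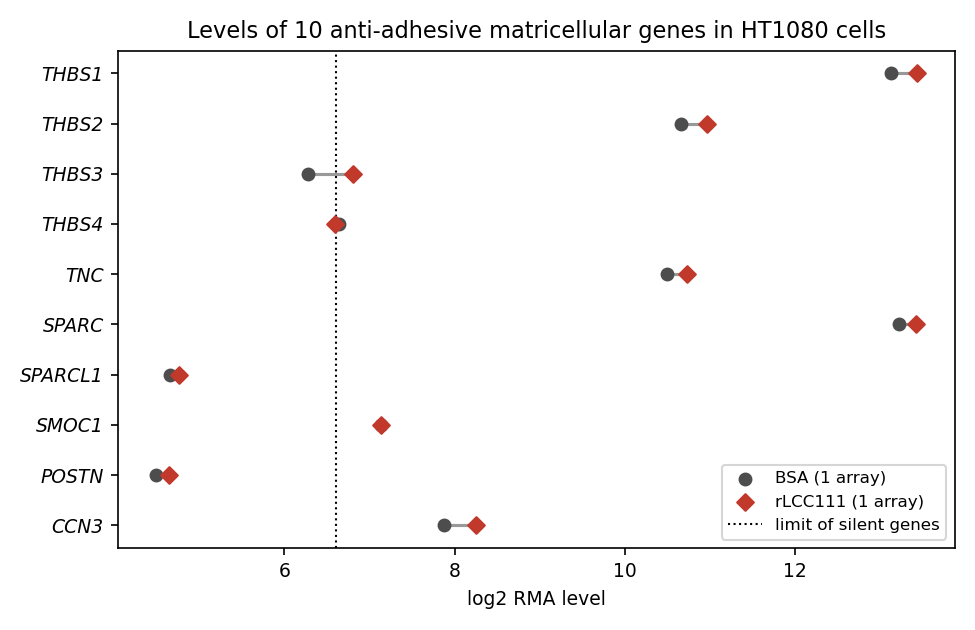
Log2 RMA level (horizontal) of each of the 10 genes (rows) on the BSA array (grey circles) and on the rLCC111 array (red diamonds), 1 array per coating, with the limit of silent genes at 6.61 (dotted). The red point lies to the right of the grey one in 8 rows, to its left in the row of THBS4 and on it in the row of SMOC1; positions of different genes are not to be compared, since each sequence has its own probes.

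THBS1 and THBS2 encode the trimeric thrombospondins, which carry the properdin-like type 1 repeats that bind CD36, and both were higher on rLCC111. THBS1 stood at 13.13 on BSA and at 13.43 on rLCC111, a difference of 0.30 and a fold of 1.23. THBS2 was at 10.66 and 10.97, a difference of 0.31 and a fold of 1.24. The THBS1 gene overlaps FSIP1, which was below the limit on both arrays at 5.33 and 5.49, while the antisense gene THBS2-AS1, which overlaps THBS2, was not named by any sequence alone. Among genes this bright, such a difference was uncommon on these arrays. Of the 414 genes with a mean level above 12, 29.7% had a difference above 0 and their median was -0.05 with an SD of 0.13, and 6 of them, or 1.45%, were at least 1.2-fold higher. THBS1 had the fifth highest difference of the 414, after the long noncoding RNA MALAT1 (0.63), the fibronectin gene FN1 (0.49), the integrin gene ITGB5 (0.34) and the cathepsin D gene CTSD (0.31), and before ERG28 (0.27), these neighbours being named after their values were seen. THBS2 lies among the 3244 genes with a mean level from 10 to 12, of which 4.87% were at least 1.2-fold higher and 3.55% had a difference as high as its own.

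THBS3 and THBS4 encode pentameric thrombospondins, which lack the type 1 repeats, and both lay at the limit of silent genes. THBS3 had the largest difference of the 10 members, with 6.27 on BSA and 6.80 on rLCC111, a difference of 0.53 and a fold of 1.44. It was below the limit on BSA and above it on rLCC111, so the size of this fold rests on a dim signal. Of the 5869 genes with a mean level up to the limit, 1.04% had a difference at least as high. The THBS3 gene overlaps MTX1, which encodes the mitochondrial import protein metaxin-1, and the antisense gene THBS3-AS1. MTX1 was at 8.86 and 8.93, a difference of 0.07, and THBS3-AS1 was not named by any sequence alone, so the part of antisense RNA in the THBS3 signal was not tested. THBS4 stood at 6.64 on BSA and at 6.59 on rLCC111, a difference of -0.05 and a fold of 0.965, and 71.5% of the 3843 genes with a mean level from the limit to 8 had a higher difference or the same. The fifth thrombospondin gene, COMP, which encodes the cartilage oligomeric matrix protein, was chosen for its family after values were seen and stood at 7.30 and 7.15, a difference of -0.14. Thus 3 of the 5 thrombospondin genes had a difference above 0, where 46.2% of all genes did. The 2 trimeric ones alone had a mean level above 10.

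TNC encodes tenascin-C, a six-armed glycoprotein of remodelling tissue and tumour stroma that interferes with adhesion to fibronectin. It stood at 10.50 on BSA and at 10.73 on rLCC111, a difference of 0.23 and a fold of 1.18, just short of 1.2-fold. Of the genes with a mean level from 10 to 12, 6.04% had a difference at least as high. The other tenascin genes measured, TNN and TNR, were below the limit and had exactly the same value on both arrays, at 6.20 and 5.65.

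SPARC encodes osteonectin, a collagen-binding glycoprotein that reduces focal adhesions, and it too lay among the 414 genes with a mean level above 12. It stood at 13.22 on BSA and at 13.42 on rLCC111, a difference of 0.20 and a fold of 1.15. Within those 414 genes this was the 11th highest difference, and 2.66% had one at least as high. SPARCL1, which encodes the related protein hevin, was at 4.65 and 4.76, below the limit on both arrays, with a difference of 0.11 that 18.3% of the genes up to the limit matched or passed. SMOC1, a calcium-binding protein of basement membranes, was at 7.14 and 7.13, a difference of -0.00087, and was the one member above the limit on both arrays with a difference below 0. The 3 differences thus ran from about 0 in SMOC1 to little more than the SD of the silent receptor genes in SPARC. Among the other relatives of SPARC, SPOCK1, which encodes the proteoglycan testican-1, stood at 10.96 on BSA and at 11.92 on rLCC111, a fold of 1.94. That difference of 0.95 was larger than that of any of the 10 members. FSTL1, taken as a relative after its value was seen, was at 11.36 and 11.46, a difference of 0.10. SPOCK2 and SPOCK3, named for their family, had differences of 0.12 and -0.05 at or below the limit.

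POSTN encodes periostin, which binds integrins and helps to crosslink collagen. It stood at 4.49 on BSA and at 4.64 on rLCC111, so no periostin mRNA above the level of silent genes was measured on either coating. Its difference of 0.15 was matched or passed by 12.4% of the genes up to the limit. Its paralogue TGFBI, a fasciclin-domain protein named for its induction by TGF-beta, was at 9.39 and 10.17, a fold of 1.71. CCN3, a cysteine-rich secreted protein known for binding integrins and NOTCH1 and for restraining growth, stood at 7.88 on BSA and at 8.25 on rLCC111. Its difference of 0.37, a fold of 1.29, was the largest among members above the limit on both arrays. Of the 5047 genes with a mean level from 8 to 10, 9.49% were at least 1.2-fold higher and 5.11% had a difference at least as high as that of CCN3. The better known CCN genes gave smaller differences, of opposite sign. CCN2, the connective tissue growth factor gene, was at 12.53 and 12.70, a difference of 0.16, and CCN1, chosen for comparison after its value was seen, was at 11.96 and 11.82, a difference of -0.14. Of the 6 CCN genes, CCN3 alone was at least 1.2-fold higher, as 6.76% of all genes were.

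**Figure D2:**
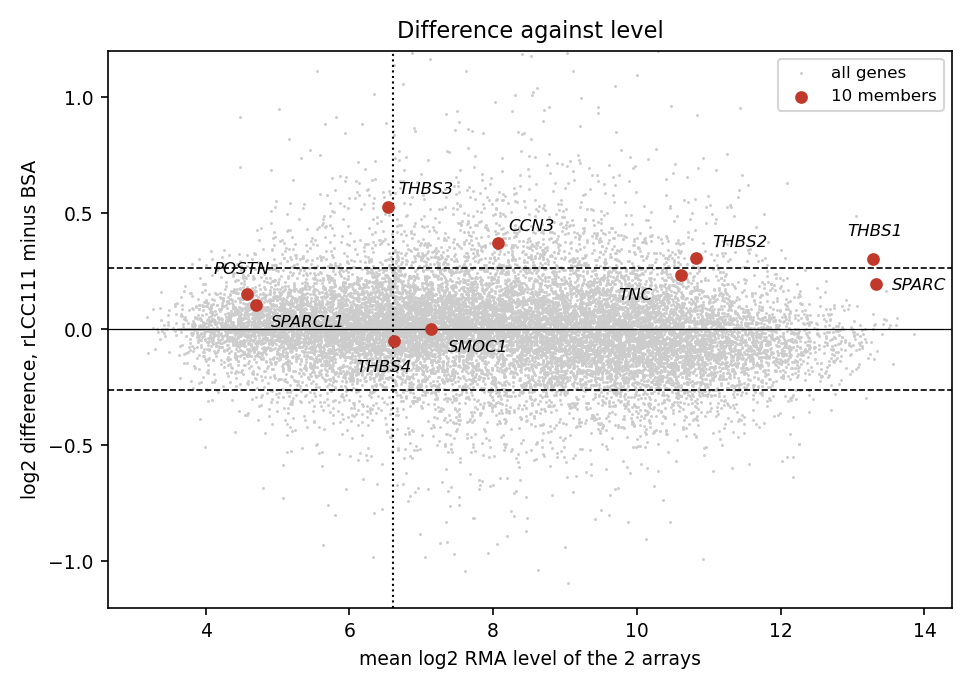
Log2 difference, rLCC111 minus BSA (vertical), against the mean log2 RMA level of the 2 arrays (horizontal) for 18417 genes (grey; 40 lie outside the vertical range of ±1.2) and the 10 members (red). Dashed lines mark 1.2-fold and the dotted line the limit of 6.61; THBS1 and SPARC stand above most of the grey cloud at their level, whereas POSTN, SPARCL1, SMOC1 and THBS4 lie within it.

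The sequence just upstream of the start is shown for the 4 members with a mean level above 10, all of them higher on rLCC111, THBS1, THBS2, TNC and SPARC, so that their promoters can be set side by side. The RefSeq table of GRCh38.p14 held 9 of the 10 members, and the window is the 250 bases before the annotated start. The windows are chr15:39580829-39581078 on the plus strand for THBS1, chr6:169253847-169254096 on the minus strand for THBS2, chr9:115118158-115118407 on the minus strand for TNC and chr5:151686916-151687165 on the minus strand for SPARC. Each reads 5′ to 3′ towards the gene, and capitals mark matches, on either strand, to the TATA box (TATAAA), the CCAAT box (CCAAT), the GC box (GGGCGG), the AP-1 site (TGANTCA), the CArG box or the TEAD site (GGAATG).
THBS1: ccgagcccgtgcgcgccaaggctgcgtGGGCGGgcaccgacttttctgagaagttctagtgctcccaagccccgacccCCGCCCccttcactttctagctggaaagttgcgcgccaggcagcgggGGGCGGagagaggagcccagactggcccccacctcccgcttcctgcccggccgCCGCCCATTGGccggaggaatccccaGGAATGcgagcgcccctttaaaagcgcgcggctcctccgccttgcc
THBS2: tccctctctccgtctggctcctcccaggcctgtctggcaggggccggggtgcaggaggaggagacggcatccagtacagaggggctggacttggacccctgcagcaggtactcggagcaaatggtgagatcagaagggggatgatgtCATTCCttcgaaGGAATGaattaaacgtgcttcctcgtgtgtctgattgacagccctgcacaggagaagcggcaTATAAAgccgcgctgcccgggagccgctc
TNC: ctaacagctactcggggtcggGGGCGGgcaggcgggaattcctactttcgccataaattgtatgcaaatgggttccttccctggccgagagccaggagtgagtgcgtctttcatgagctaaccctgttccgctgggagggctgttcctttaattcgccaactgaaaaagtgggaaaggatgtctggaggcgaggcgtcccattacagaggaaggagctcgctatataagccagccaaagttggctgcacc
SPARC: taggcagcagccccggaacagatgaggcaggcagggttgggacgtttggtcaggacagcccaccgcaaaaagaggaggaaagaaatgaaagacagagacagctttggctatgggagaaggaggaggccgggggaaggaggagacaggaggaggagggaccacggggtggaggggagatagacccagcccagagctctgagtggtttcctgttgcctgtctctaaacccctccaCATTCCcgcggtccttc
The 4 windows differed in their make-up. THBS1 had a GC content of 69.6% and 4 GC boxes, 1 of them directly beside a CCAAT box with no shared base, while THBS2 had 60% and a TATA box 29 to 24 bases before the start. TNC, at 54.8%, held 1 GC box, and SPARC, at 59.2%, held neither a GC box nor a TATA box of these letters. The TEAD hexamer was the one motif found in 3 of these 4, once in THBS1, once in SPARC and as an inverted pair in THBS2. It was in 3 of the 9 members and in 11.9% of 35116 windows of the same length. The TATA box was in 4 members (THBS2, SPARCL1, SMOC1 and POSTN) and 10.7% of windows, the CCAAT box in 5 and 32%, and the GC box in 5 and 42.6%. The AP-1 site was in POSTN and 6.57% of windows, and the CArG box in SPARCL1 and 1.16%. THBS3 and THBS4 each have 2 windows in the table, and a match in either was counted. No motif was held by all of the members that were higher on rLCC111, and a match of letters is not a measured site of binding.

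The sign of each difference held under every scaling of the 2 arrays that was tried. No member changed sign when the arrays were centred on their medians, quantile normalized or freed of a lowess trend with level, and no difference moved by more than 0.086. The count at 1.2-fold did depend on it, since THBS1, THBS2 and TNC lay near that size. It was 4 as deposited and 4 after quantile normalization, 5 with TNC after lowess, and 2 after median centring, which took 0.079 off every gene and left THBS3 at 0.45 and CCN3 at 0.29. THBS1 and THBS2 were then at 0.22 and 0.23. Centring used the medians of all 33297 sequences, and it moved the median of all 18417 genes from 0.00 to -0.08. The median of the members thus stayed 0.22 above that of all genes. The share of all genes at least 1.2-fold higher was counted as deposited only, at 6.76%.

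**Figure D3:**
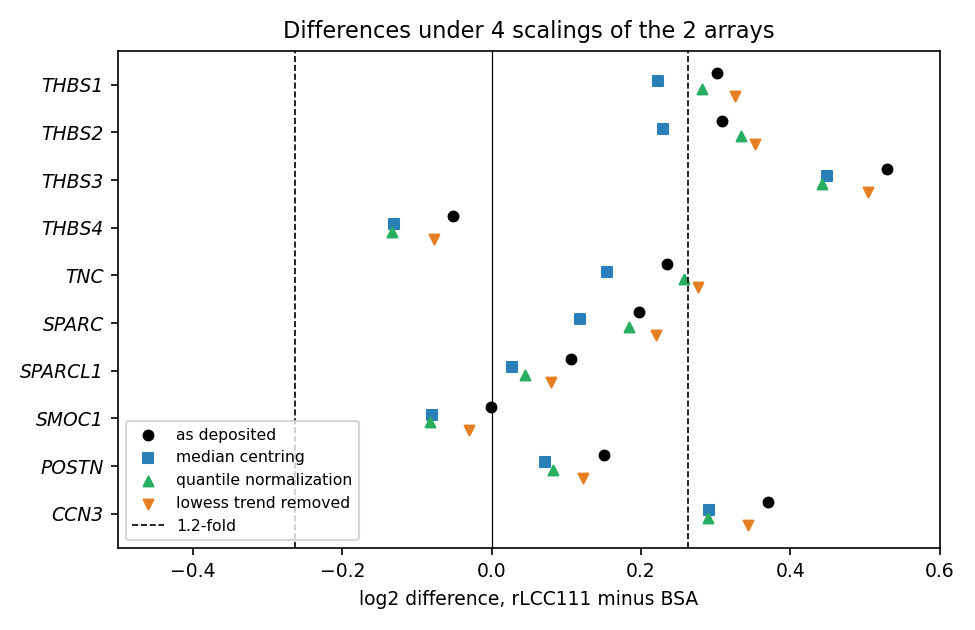
Log2 difference, rLCC111 minus BSA (horizontal), of the 10 members (rows) as deposited and after 3 further scalings of the 2 arrays; dashed lines mark 1.2-fold. Every symbol of THBS3 and CCN3 lies to the right of the dashed line, those of THBS1, THBS2 and TNC lie on both sides of it, and each gene keeps its side of 0.

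The cell surface receptors of these proteins were a mixed group, in which LRP1 had the largest difference. LRP1, the endocytic receptor that together with calreticulin passes on the signal of thrombospondin-1 to release focal adhesions, stood at 8.99 on BSA and at 9.93 on rLCC111, a fold of 1.91. Its partner CALR, chosen for this role after its value was seen, was at 12.63 and 12.69, a difference of 0.06. CD47 and CD36, chosen likewise, were at 11.09 and 10.89 (a difference of -0.20) and at 4.09 and 4.01, the latter below the limit on both arrays. The chains of the αvβ3 and αvβ5 integrins, which bind several of these proteins, were higher, ITGAV with a fold of 1.40, ITGB3 with 1.62 and ITGB5 with 1.27. ITGA6, a chain of laminin-binding integrins named because it was the one receptor at least 1.2-fold lower, was at 12.26 and 11.95, a fold of 0.807. Of 26 receptor genes, 5 were at least 1.2-fold higher, a size that 6.76% of all genes reached. ITGA6 alone was lower by that much, as 5.89% of all genes were. In the same list 14 had a difference above 0 and 10 below, where 46.2% and 46.6% of all genes did. The median of the 26 was 0.06, beside 0.00 over all genes. After median centring it was -0.02, beside -0.08 over all genes, with 3 receptor genes at least 1.2-fold higher and 4 lower by that much. Centring took 0.079 off every gene, and the shares of all genes at these sizes were not counted after it, so these 2 counts have no background.

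**Figure D4:**
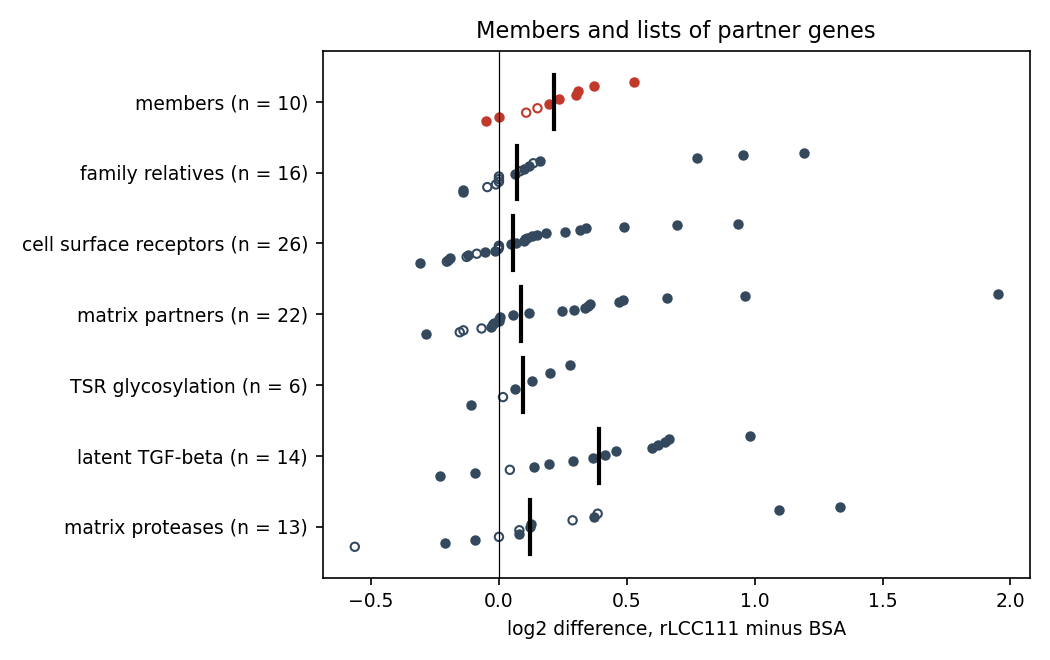
Log2 difference, rLCC111 minus BSA (horizontal), of each gene of the 10 members (red) and of 6 lists of related genes (blue), with the median of each list as a black bar; open circles are genes below the limit of silent genes on both arrays. The latent TGF-beta list, with its median at 0.39, lies farthest to the right, VCAN at 1.95 is the single farthest point, and no member passes THBS3 at 0.53.

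Among 16 measured relatives in the thrombospondin, tenascin, SPARC, periostin, CCN and SIBLING families, SPP1, SPOCK1 and TGFBI were at least 1.2-fold higher and none was lower by that much. Over all genes, 6.76% were higher and 5.89% lower by that much. SPP1, the osteopontin gene, stood at 8.43 on BSA and at 9.62 on rLCC111, a fold of 2.28. The median of these relatives was 0.07, beside 0.00 over all genes. It was -0.01 after median centring and after quantile normalization, where the median of all genes was -0.08 and -0.06. TNXB was not named by any sequence alone and has no value here.

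Among matrix proteins that bind these members, VCAN, COL4A1 and COL4A2 alone had larger differences than any member. Of 22 such partners, 9 reached 1.2-fold higher, as 6.76% of all genes did, and 1 reached 1.2-fold lower, as 5.89% did. Their median was 0.09, beside 0.00 over all genes, and under median centring, quantile normalization and lowess it lay 0.09, 0.06 and 0.08 above that of all genes. VCAN, which encodes versican, had a fold of 3.86. The basement membrane collagen genes COL4A1 and COL4A2 had folds of 1.95 and 1.57. FN1, which encodes the fibronectin that tenascin-C and thrombospondin-1 bind, stood at 12.80 on BSA and at 13.29 on rLCC111. Its fold of 1.40 was below the 1.44 of THBS3. LOX, the lysyl oxidase gene and the one partner that was at least 1.2-fold lower, had a difference of -0.29, which after lowess was -0.24 and short of that size.

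Thrombospondin-1 can release the growth factor TGF-beta from its latent form, and the genes of TGF-beta, of its storage and activation and of its receptors were mostly higher on rLCC111. Of 14 genes, 12 had a difference above 0, where 46.2% of all genes did, and 9 were at least 1.2-fold higher, where 6.76% were. None of the 14 was lower by that much as deposited, though TGFBR2 was after median centring. The median of the 14 was 0.39, beside 0.00 over all genes. Under median centring, quantile normalization and lowess it was 0.31, 0.40 and 0.43, beside -0.08, -0.06 and -0.02 over all genes. ITGB8, an integrin chain that activates latent TGF-beta, had a fold of 1.97, LTBP3 and LTBP1, which tether the latent form in the matrix, 1.59 and 1.57, and TGFB2 1.54. LTBP2 and LTBP4 had folds of 1.14 and 1.37 and TGFB1 and TGFB3, given to complete the ligands and tethers, 1.29 and 1.51, so that all 3 ligand genes and all 4 LTBP genes had a difference above 0 in each scaling. TGFBR2, which encodes the type II receptor and is named as the larger of the 2 differences below 0, was at 11.86 and 11.63, a difference of -0.23.

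Among 6 genes listed for the glycosylation of type 1 repeats, POFUT2, the fucosyltransferase of these repeats, had a fold of 1.21. It was the one at least 1.2-fold higher as deposited, where 6.76% of all genes were. Its difference of 0.28 was 0.20 after median centring and 0.22 after quantile normalization, short of that size. The C-mannosyltransferase genes DPY19L1 and DPY19L3 had differences of 0.20 and 0.13, and B3GLCT, which adds glucose to the fucose, -0.11. Among 13 proteases of matrix proteins, MMP2, encoding gelatinase A, had a fold of 2.52 and HTRA1, a secreted serine protease, 2.13. In all, 5 were at least 1.2-fold higher, where 6.76% of all genes were. Of these 5, MMP7 and ADAMTS4, named for this reason, were below the limit on both arrays. CTSK, which encodes cathepsin K, had a fold of 1.30 from a level below the limit on BSA, and MMP1, the interstitial collagenase, had a difference of -0.21. MMP3, below the limit on both arrays, was the one protease at least 1.2-fold lower, as 5.89% of all genes were.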

How the data were processed

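RNA of 1 HT1080 culture on BSA and 1 on rLCC111 was measured on 1 array each. Per the labels, the authors processed the scans with RMA in Affymetrix Expression Console, and they deposited log2 levels of 33297 sequences, which were used unchanged. The version and settings are not given in the sources used here. RMA sets the arrays on a common scale and summarises the probes of a sequence, which can shrink a difference. Limma, named in the methods, needs replicates, so no test was run, and the number of arrays limits the precision.

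Symbols came from the annotation of the platform, updated to RefSeq GRCh38.p14: 19460 sequences have 1 symbol, 1754 several and 12083 none, and the first kind was used. Where several sequences named a gene, the one with the highest mean over the 2 arrays was taken. The members, the lists and the 1.2-fold size were chosen with earlier results of these data known. Named genes are the members and, from each other list, genes at least 2-fold different and the 4 largest differences above the limit, with exceptions said in the text. Genes of like pattern are not named, since 2 arrays give no measure of likeness. Alternatives were median centring, quantile normalization, lowess (span 0.2, 3 iterations), the mean of a gene's sequences and filters on level. A difference or median was said to move when it shifted by over 0.18, the SD of the receptor genes' differences, which is wide for a median, and a count when it changed by over 1.5 times. The counting was tested on simulated data. The software was pandas 2.3.3, numpy 2.4.6, statsmodels 0.14.6 and matplotlib 3.10.9 under Python 3.11.15.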

Additional observations from a re-analysis of the deposited data

How the results depend on the processing

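The 10 member differences kept their sign and moved by at most 0.086 under median centring, quantile normalization, lowess and the mean of sequences, the last of which changed none since each member has 1 sequence. The count of members at least 1.2-fold higher was 4 as deposited and 2 after median centring. The count with a difference above 0 was 8 of 10 as deposited and 5 of the 6 with both arrays above the limit, a fall that comes from the smaller number of genes kept. The median of the matrix partners was 0.09 as deposited, 0.27 with the brighter array and 0.29 with both arrays above the limit, where dim genes are left out. The other alternatives kept the counts of members within 1.5 times and list medians within 0.18, a bound set by single genes and so a loose one for medians. Counts in the other lists were not held to this bound. Under median centring the receptor genes at least 1.2-fold higher went from 5 to 3, and those lower by that much from 1 to 4. Median centring shifts all genes by 0.079, so it leaves the distance of a list from all genes as it was. The median of the members ran from 0.14 to 0.27. Signal over background limits SPARCL1 and POSTN, below the limit on both arrays, and THBS3 and THBS4, at it. No paired analysis was possible because each coating has 1 array.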

Other observations

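Of the 18417 genes, 1325, or 7.19%, had exactly the same deposited value on both arrays, to the last digit. None of the 10 members was among them, but their relatives TNN, TNR and CCN6 were, as were STAB2, ITGA8, COL3A1 and VTN among the receptors and partners. Equal values were most frequent among dim genes: 16.1% of genes up to the limit of silent genes, 6.48% from the limit to a mean level of 8, 1.92% from 8 to 10, 1.02% from 10 to 12 and 0.966% above 12 had them. By number, 942 of the 1325 lay up to the limit. The counts of genes above or below 0 leave these genes out of both sides.

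Bright genes leaned towards lower values on rLCC111. The median difference was 0.00 up to the limit, 0.01 from the limit to 8, 0.00 from 8 to 10, -0.04 from 10 to 12 and -0.05 above 12. THBS1, SPARC, THBS2 and TNC all lie in the last 2 of these ranges and were higher on rLCC111.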
